A study of Homo sapiens with 18 samples.

Results

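The 37 genes of the human mitochondrial genome were followed in sorted lymphoma cells. They were every row of a table of 58735 genes whose symbol starts with MT-, and comprised 13 protein-coding genes, 2 ribosomal RNA (rRNA) genes and 22 transfer RNA (tRNA) genes. Their share of all counts was 5.24% ± 0.257 in mice given tazemetostat and 5.09% ± 0.146 in mice given vehicle (SD, n = 3 mice each). Of the 36 that could be tested 0 passed the edgeR threshold, which 0.0345% of all tested genes passed. MT-ND6 was the only 1 of the 36 whose groups did not overlap, with lower values after tazemetostat, while 12.6% of all tested genes had groups without overlap.

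The cells were OCI-Ly18, a cell line established from a human diffuse large B-cell lymphoma and carrying green fluorescent protein, grown under the skin of NSG mice, which lack T cells, B cells and natural killer cells of their own. In the tazemetostat group (mice M_767, M_768 and M_774), tazemetostat (EPZ6438), which blocks the repressive histone methyltransferase EZH2, was given by oral gavage at 150 mg/kg daily for 14 days, starting 3 days after implantation. In the vehicle group (mice M_766, M_769 and M_770), vehicle was given over the same days. Every mouse of both groups then received CART19 cells, T cells that carry a chimeric antigen receptor. The GFP-positive tumour cells were sorted 11 days after the infusion, so no group here lacked T-cell exposure.

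Drug treatment after the infusion is not described in the sources used here, and all tumours came from 1 cell line. Mice infused with UTD cells were not analysed here. Each mouse had 3 libraries, lettered A, B and C, whose relation to each other is not stated, and each library held 16124494 to 26336269 counts. The libraries of a mouse were summed, because the mouse received the treatment. The tazemetostat library M_768_C was unlike M_768_A and M_768_B and lay closest to the vehicle mouse M_766. Some results, among them MT-ND6, MT-RNR1 and MT-ND5, are therefore also given without them. Not every result that may rest on either is given in this way. In bulk RNA, fewer cells of a type and less RNA per cell cannot be told apart.

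The mitochondrial genome is a small circle that is transcribed from both strands as long precursors. Most of its coding genes are bordered by tRNA genes, and the precursors are cut at the tRNAs to release the separate messenger and ribosomal RNAs. The coding genes give subunits of respiratory complexes I, III and IV and of ATP synthase, the 2 rRNAs belong to the mitochondrial ribosome, and the tRNAs serve translation inside the organelle. In the annotation 28 of the 37 genes lie on the plus strand, and 9 lie on the minus strand, namely MT-ND6 and 8 tRNA genes.

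Some neighbours share bases, which bears on how their counts are read. MT-ATP8, a small subunit of the membrane part of ATP synthase, ends inside MT-ATP6, which encodes the subunit at the proton channel. The last 120 bases of MT-ATP8 (chrM:8453-8572) and the first 120 bases of MT-ATP6 (chrM:8527-8646) are printed 5′ to 3′ with their 46 shared bases in capitals (plus strand, GRCh38, GENCODE 29).
MT-ATP8: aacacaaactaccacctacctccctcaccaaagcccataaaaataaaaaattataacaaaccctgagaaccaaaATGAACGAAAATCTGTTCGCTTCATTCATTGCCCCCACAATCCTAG
MT-ATP6: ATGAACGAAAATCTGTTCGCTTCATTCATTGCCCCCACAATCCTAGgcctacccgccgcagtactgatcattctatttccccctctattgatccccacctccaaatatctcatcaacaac
A read that covers the capitals fits both genes.

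MT-ND4L and MT-ND4, both complex I subunits made from 1 messenger RNA, overlap in the same way by 7 bases. The end of MT-ND4L (chrM:10647-10766) and the start of MT-ND4 (chrM:10760-10879) are printed with the shared bases in capitals (plus strand, 5′ to 3′, same build and annotation).
MT-ND4L: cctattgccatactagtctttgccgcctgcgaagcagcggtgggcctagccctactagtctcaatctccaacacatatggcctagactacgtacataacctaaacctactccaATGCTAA
MT-ND4: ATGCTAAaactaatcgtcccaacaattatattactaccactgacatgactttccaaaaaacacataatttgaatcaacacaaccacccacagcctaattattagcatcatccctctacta

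The 22 tRNA genes are 59 to 75 bases long. Those with the most counts lie on the minus strand and are printed as whole genes, 5′ to 3′ on that strand, with the anticodon in capitals. MT-TN (chrM:5657-5729) carries asparagine, MT-TC (chrM:5761-5826) cysteine, MT-TP (chrM:15956-16023) proline and MT-TY (chrM:5826-5891) tyrosine. MT-TA (chrM:5587-5655), for alanine, and MT-TQ (chrM:4329-4400), for glutamine, lie on the same strand and are shown because they had the fewest counts.
MT-TN: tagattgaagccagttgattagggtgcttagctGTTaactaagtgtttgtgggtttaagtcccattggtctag
MT-TC: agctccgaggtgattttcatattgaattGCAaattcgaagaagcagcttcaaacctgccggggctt
MT-TP: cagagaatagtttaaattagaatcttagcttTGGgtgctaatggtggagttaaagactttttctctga
MT-TY: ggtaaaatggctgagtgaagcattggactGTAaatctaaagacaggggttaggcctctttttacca
MT-TA: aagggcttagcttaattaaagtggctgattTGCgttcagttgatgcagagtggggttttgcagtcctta
MT-TQ: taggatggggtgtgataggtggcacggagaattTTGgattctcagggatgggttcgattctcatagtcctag
Whether counting used the strand of a read is not given in the sources used here, so counts of a minus-strand gene may include reads of the RNA made from the opposite strand.

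Tumour cells of both groups gave about the same part of their counts to the mitochondrial genome. The 37 genes held 5.45%, 4.95% and 5.31% of counts in M_767, M_768 and M_774 of the tazemetostat group, against 5.17%, 4.92% and 5.18% in M_766, M_769 and M_770 of the vehicle group. The groups overlapped, and the difference of 0.146 percentage points was smaller than the SD of the tazemetostat mice and about equal to that of the vehicle mice. The 3 libraries of a mouse differed among themselves by an SD of 0.135 percentage points. Counting error alone gave 95% Wilson half-widths of at most 0.00582 percentage points, so depth did not limit this share.

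The coding genes made up most of it. They held 4.74%, 4.27% and 4.62% of counts in the tazemetostat mice, against 4.37%, 4.19% and 4.52% in the vehicle mice (mean 4.54% ± 0.248 after tazemetostat and 4.36% ± 0.166 after vehicle). The rRNA genes held 0.679%, 0.661% and 0.664% in the tazemetostat mice, against 0.777%, 0.709% and 0.632% in the vehicle mice (mean 0.668% ± 0.0093 after tazemetostat and 0.706% ± 0.0726 after vehicle). The tRNA genes held 0.0269%, 0.0226% and 0.0245% in the tazemetostat mice, against 0.0287%, 0.0240% and 0.0246% in the vehicle mice. In each class the groups overlapped. The difference was positive for coding genes and negative for rRNA and tRNA genes. The coding difference, 0.185 percentage points, was smaller than the SD of the tazemetostat mice and larger than that of the vehicle mice. The rRNA difference, -0.0381 percentage points, was smaller in size than the SD of the vehicle mice and larger than that of the tazemetostat mice. The tRNA difference, -0.00108 percentage points, was smaller in size than both SDs. It changed sign when a mouse was left out (-0.0022 to 0.000402). The rRNA difference rested mainly on vehicle mouse M_766, the highest of all mice at 0.777%, while vehicle mouse M_770 was the lowest at 0.632%.

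**Figure D1:**
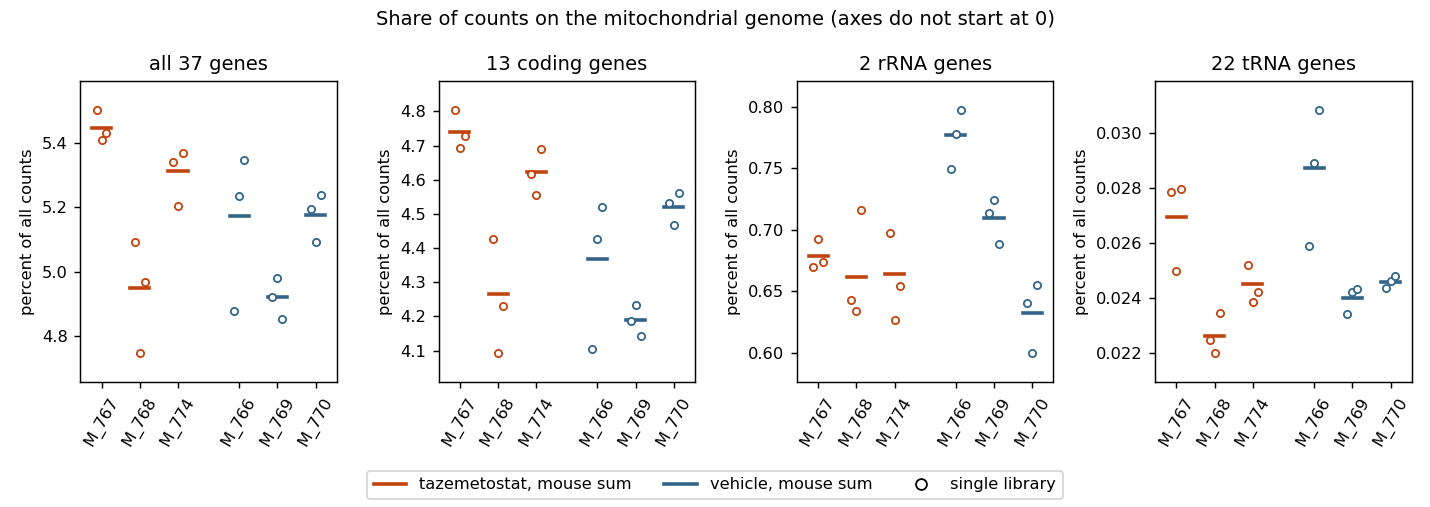
Share of all counts on the mitochondrial genome in percent, for all 37 genes and for the coding, rRNA and tRNA genes, with the tazemetostat mice left of the vehicle mice. Lines are mouse sums and circles are single libraries; for all 37 genes the tazemetostat mice lie between 4.95% and 5.45% and the vehicle mice between 4.92% and 5.18%.

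Set against the coding counts, the other classes were also not separated between the groups. There were 14.3, 15.5 and 14.4 rRNA counts per 100 coding counts in the tazemetostat mice, against 17.8, 16.9 and 14.0 in the vehicle mice. There were 56.8, 53.0 and 53.0 tRNA counts per 10000 coding counts in the tazemetostat mice, against 65.8, 57.3 and 54.4 in the vehicle mice. In both ratios M_766 was the highest of the 6 mice and the groups overlapped. How rRNA was removed and whether small RNAs were kept in the libraries is not given in the sources used here, so these ratios describe the libraries rather than the RNA in the cell.

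Levels differed widely among the 37 genes. Over all mice and per kilobase of gene, MT-CO3 and MT-CO1, core subunits of complex IV, stood highest at 8448 and 8104 CPM per kilobase (CPM, counts scaled to 1 library size with TMM factors). MT-CO2, the complex IV subunit that takes electrons from cytochrome c, had 7220 and MT-ATP6 had 5720 CPM per kilobase. MT-ND4 of complex I followed with 4350, and MT-RNR2, the RNA of the large ribosomal subunit, with 3597 CPM per kilobase. The complex IV genes thus lay above the complex I genes on this scale.

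The middle of the order held the remaining complex I genes and complex III. MT-CYB, the cytochrome b subunit of complex III, had 2477 CPM per kilobase. MT-ND3, MT-ND4L, MT-ND1, MT-ND2 and MT-ND6 had 2202, 2141, 2076, 1661 and 1482 CPM per kilobase, MT-RNR1, the RNA of the small ribosomal subunit, had 1330, and MT-ND5 had 1015. MT-ATP8 had 163 CPM per kilobase, the lowest of the coding genes, although it shares an RNA with MT-ATP6. Neighbours in this order such as MT-CO3 and MT-CO1, or MT-ND3, MT-ND4L and MT-ND1, overlapped between mice.

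MT-CO1 alone took 28.1% of the coding counts and had more counts than any other gene of the table. Of the 10 genes with the most counts, 5 were mitochondrial. Within the rRNA class MT-RNR2 held 81.5% of counts. The class sums therefore largely describe these 2 genes together with MT-CO3 (14.9% of coding counts), MT-ND4 (13.5%) and MT-CO2 (11.1%).

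**Figure D2:**
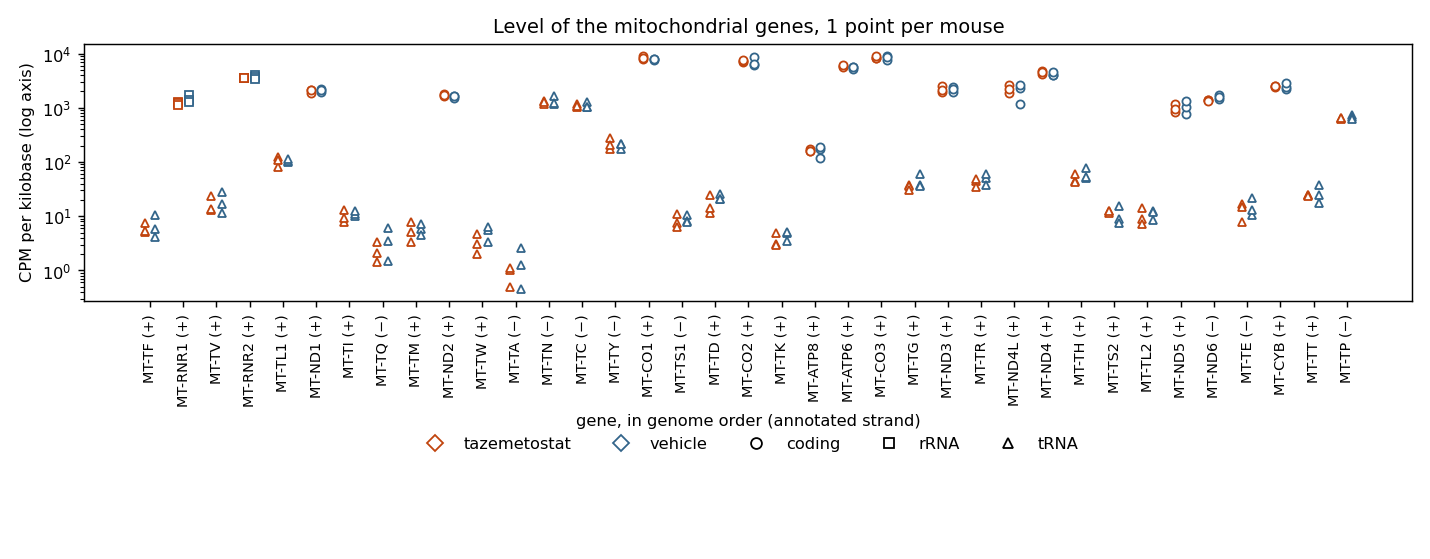
Level of each mitochondrial gene in CPM per kilobase on a log axis, with 1 point per mouse and the genes in genome order, tazemetostat left of vehicle. The coding and rRNA genes other than MT-ATP8 lie high on the axis together with MT-TN and MT-TC, between 1015 CPM per kilobase for MT-ND5 and 8448 for MT-CO3 over all mice, while MT-TA has 1.15.

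In the tRNA class, counts sat on few genes. MT-TN held 37.4%, MT-TC 28.8% and MT-TP 17.7% of the 94760 tRNA counts, or 83.9% together. The 8 minus-strand tRNA genes held 90.1% of tRNA counts, although 14 of the 22 lie on the plus strand. Per kilobase MT-TN and MT-TC had 1293 and 1099 CPM, close to MT-RNR1 and MT-ND5. The plus-strand tRNA with the most counts was MT-TL1, for leucine, with 105 CPM per kilobase. Reads of uncut precursors and reads of tRNAs are not separated in such counts.

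The scarcest tRNA genes were near the detection limit. MT-TA had 5, 5 and 2 counts in the tazemetostat mice, against 2, 5 and 10 counts in the vehicle mice, and it did not pass the filter on low counts. MT-TQ, for glutamine, had 0.165 ± 0.0696 CPM in the tazemetostat mice and 0.266 ± 0.164 CPM in the vehicle mice. At this depth differences between the groups in such genes were not detectable, and the standard errors of tRNA changes reached 0.539 on the log2 scale.

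Tested gene by gene, 0 of the 36 mitochondrial genes passed an adjusted p of 0.05 in the edgeR quasi-likelihood test (Benjamini-Hochberg adjustment over 20301 genes), against 0.0345% of all tested genes (0.0197% higher and 0.0148% lower in the tazemetostat mice, 7 genes in all). At an unadjusted p below 0.05 edgeR listed 1 of the 36, against 6.55% of all tested genes. DESeq2 called 0 of them, with no adjusted p for MT-TQ, and limma-voom called 0 of the 31 it tested, while they called 0.676% and 1.38% of all genes they tested. Median log2 fold changes, tazemetostat over vehicle, were -0.09 over the 36 genes and -0.01 over all tested genes.

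By class, the median log2 fold change was 0.04 for the 13 coding genes, of which 9 were positive. Both rRNA genes were negative. Of the 21 tested tRNA genes 19 were negative, with a median of -0.13 and a range of -0.65 to 0.21 on the log2 scale. The approximate 95% interval of each of these 21 genes included 0. Over all 36 genes the count of signs turned on single mice. Without tazemetostat mouse M_768, 18 of the 36 were positive with a median log2 fold change of 0.002. Without vehicle mouse M_770, 17 of the 36 were positive with a median of -0.014. Among the tRNA genes alone, more were negative than positive in both of these fits, although several changed sign.

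**Figure D3:**
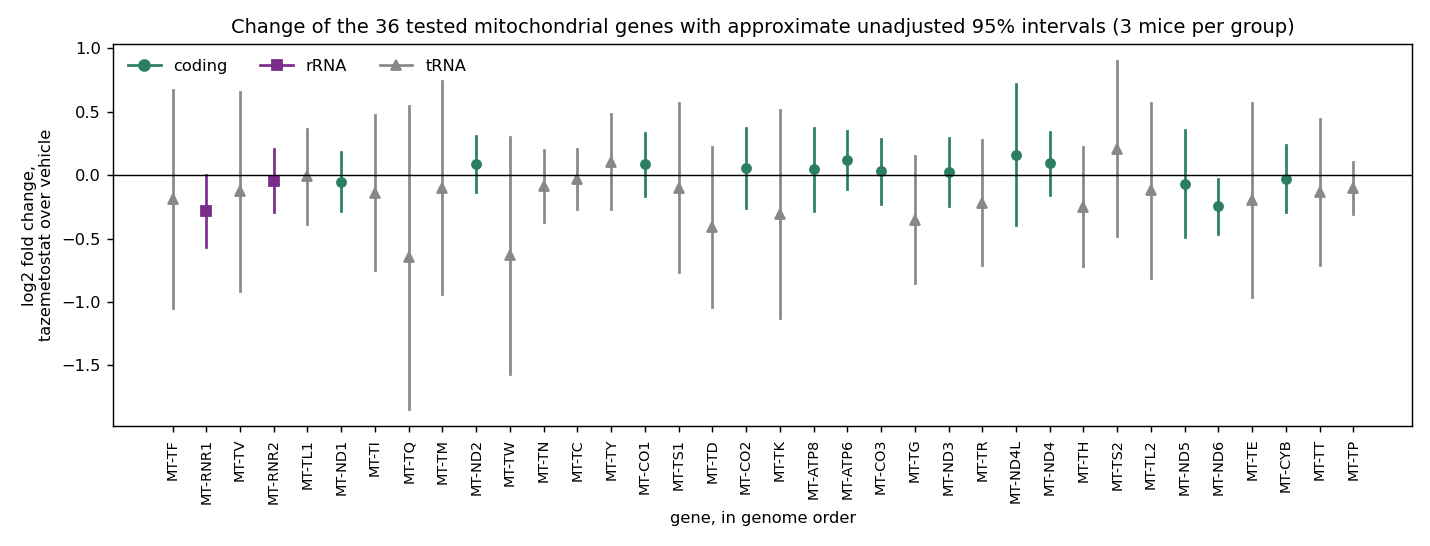
Log2 fold change, tazemetostat over vehicle, of the 36 tested mitochondrial genes in genome order with approximate unadjusted 95% intervals (n = 3 mice per group). The interval of MT-ND6 lies below 0, from -0.46 to -0.03, and its adjusted p did not pass the threshold; the intervals of the scarce tRNA genes are the widest.

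MT-ND6, the complex I subunit that is the only coding gene on the minus strand, was the one gene without overlap. It had 714, 719 and 702 CPM in M_767, M_768 and M_774 of the tazemetostat group, against 915, 777 and 842 CPM in M_766, M_769 and M_770 of the vehicle group. All 3 tazemetostat mice lay below all 3 vehicle mice, and the spread was smaller among the tazemetostat mice (712 ± 8.63 CPM) than among the vehicle mice (845 ± 69.2 CPM). The narrow tazemetostat spread rested in part on M_768_C, which had 854 CPM, against 690 CPM in M_768_A and 652 CPM in M_768_B. The log2 fold change of MT-ND6 was -0.25 (SE 0.0964, 95% interval -0.46 to -0.03, edgeR unadjusted p = 0.0274 and adjusted p = 0.676). Groups without overlap in this direction occurred in 6.0% of all tested genes, and in either direction in 12.6%.

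Relative to its class, MT-ND6 made up 1.53%, 1.67% and 1.51% of coding counts in the tazemetostat mice, against 2.06%, 1.89% and 1.85% in the vehicle mice. The mean was 1.57% ± 0.0844 in the tazemetostat mice and 1.93% ± 0.112 in the vehicle mice, a difference of -0.359 percentage points, and no tazemetostat mouse reached a vehicle mouse. Single libraries ran from 1.51% to 1.83% in the tazemetostat group and from 1.77% to 2.12% in the vehicle group. They overlapped through 1 tazemetostat library, M_768_C, which had 1.83% while the other 8 had 1.51% to 1.61%. With each mouse left out in turn the difference ran from -0.408 to -0.296 percentage points, and without M_768_C it was -0.381. Because the mice of the groups did not overlap, leaving out a mouse could not change its sign.

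The MT-ND6 transcript differs in composition from the other coding genes. It had 7.05% C and 35.6% G, while the 12 plus-strand coding genes had 29.5% to 35.98% C and 6.28% to 16.2% G. MT-ND5 lies next to MT-ND6 on the opposite strand and had 2133, 1538 and 1716 CPM in the tazemetostat mice, against 1373, 1885 and 2392 CPM in the vehicle mice. MT-ND5 overlapped between the groups (log2 fold change -0.07, SE 0.19, 95% interval -0.49 to 0.35). Without M_766 it was at -0.24, and without M_766 and M_768_C at -0.20. A difference from MT-ND6 was not tested.

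Neither rRNA gene passed the test, and both were negative. MT-RNR1 had 1218, 1165 and 1050 CPM in the tazemetostat mice, against 1647, 1335 and 1196 CPM in the vehicle mice. M_767 lay above M_770, so the groups overlapped, and the log2 fold change was -0.28 (SE 0.129, 95% interval -0.57 to 0.0025, edgeR unadjusted p = 0.0517 and adjusted p = 0.763). MT-RNR2 had 5455, 5514 and 5606 CPM in the tazemetostat mice, against 6263, 5632 and 5179 CPM in the vehicle mice (log2 fold change -0.04, SE 0.111). The 3 vehicle mice were spread more widely than the tazemetostat mice in both genes, with M_766 the highest.

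The ratio of the 2 rRNAs, which was chosen after its values were seen, did not overlap between the groups. There were 4.48, 4.73 and 5.34 MT-RNR2 counts per MT-RNR1 count in the tazemetostat mice, against 3.80, 4.22 and 4.33 in the vehicle mice (mean 4.85 ± 0.443 after tazemetostat and 4.12 ± 0.278 after vehicle). Single libraries overlapped, at 4.09 to 5.79 in the tazemetostat group and 3.57 to 5.07 in the vehicle group. With a mouse left out in turn the difference ran from 0.489 to 0.92, and with groups that do not overlap it could not change sign. Among single genes, 12.6% of all tested genes had groups without overlap, and no such share was computed for ratios.

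**Figure D4:**
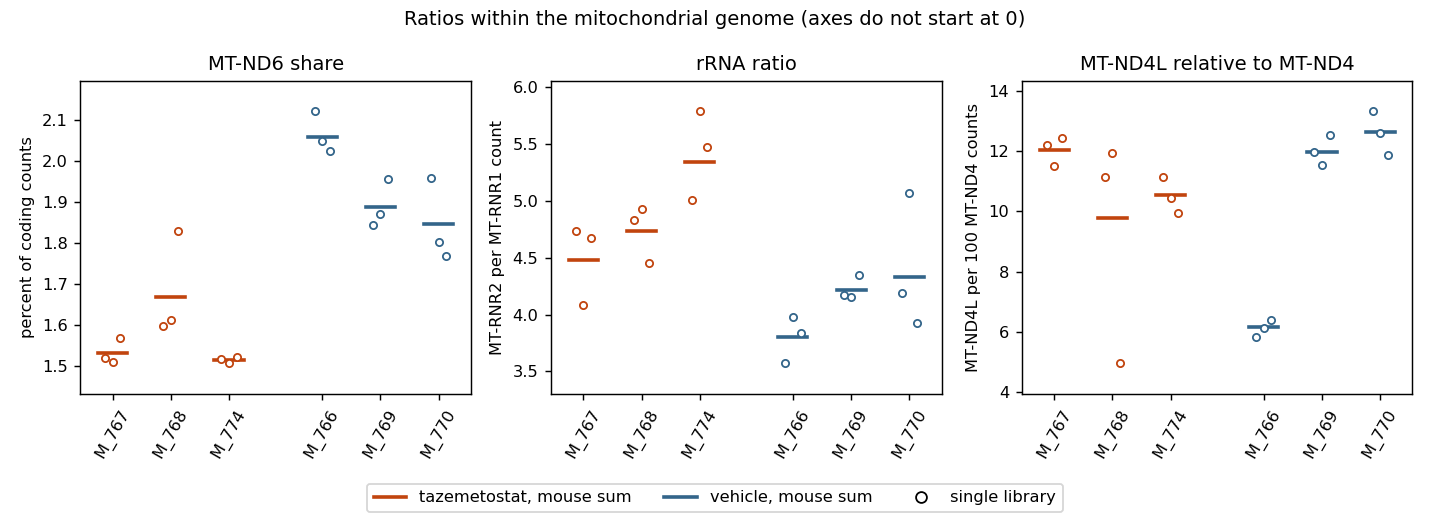
MT-ND6 as a percent of coding counts, MT-RNR2 counts per MT-RNR1 count, and MT-ND4L counts per 100 MT-ND4 counts, with the tazemetostat mice left of the vehicle mice. Lines are mouse sums and circles single libraries; the MT-ND6 share is 1.51% to 1.67% in tazemetostat mice and 1.85% to 2.06% in vehicle mice, and the MT-ND4L ratio is low in all 3 libraries of M_766 and in M_768_C.

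The 7 complex I genes shared no direction. MT-ND1, MT-ND2 and MT-ND4, membrane subunits of the complex, had log2 fold changes of -0.05 (SE 0.105), 0.09 (SE 0.0988) and 0.09 (SE 0.112), and MT-ND3 had 0.02 (SE 0.12). Over these 4 genes the approximate 95% intervals of the ratio of tazemetostat to vehicle lay between 0.821 and 1.27. MT-ND4L had 788, 554 and 672 CPM in the tazemetostat mice, against 343, 677 and 781 CPM in the vehicle mice. Its interval was wide, from -0.39 to 0.72 on the log2 scale, and the vehicle mouse M_766 was far below the other 5.

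The ratio of MT-ND4L to MT-ND4, also chosen after its values were seen, shows the same mouse. There were 12.1, 9.79 and 10.6 MT-ND4L counts per 100 MT-ND4 counts in the tazemetostat mice, against 6.16, 11.99 and 12.6 in the vehicle mice. The ratio compares 2 stretches of 1 messenger RNA, and M_766 stood below the other 5 mice. The complex I genes together took 31.8%, 29.7% and 30.2% of coding counts in the tazemetostat mice, against 28.9%, 32.0% and 32.4% in the vehicle mice, and the groups overlapped.

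In complex III the only mitochondrial gene, MT-CYB, had 2864, 2709 and 2826 CPM in the tazemetostat mice, against 2554, 2702 and 3305 CPM in the vehicle mice. The tazemetostat mice lay within the range of the vehicle mice (log2 fold change -0.03, SE 0.119). In complex IV, MT-CO1 had 13690, 11980 and 12930 CPM in the tazemetostat mice, against 12210, 11740 and 12420 CPM in the vehicle mice (log2 fold change 0.09, SE 0.113). MT-CO2 and MT-CO3 had log2 fold changes of 0.05 (SE 0.143) and 0.03 (SE 0.116). All 3 complex IV genes overlapped between the groups, and together they took 53.4% to 54.8% of coding counts in the tazemetostat mice and 51.7% to 56.7% in the vehicle mice.

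Of the ATP synthase genes, MT-ATP6 had 3999, 3910 and 4257 CPM in the tazemetostat mice, against 3798, 3485 and 3922 CPM in the vehicle mice (log2 fold change 0.12, SE 0.105). M_768 lay just below the vehicle mouse M_770, so the groups overlapped. MT-ATP8 had 36.3, 33.6 and 32.7 CPM in the tazemetostat mice, against 24.7, 36.3 and 38.5 CPM in the vehicle mice. M_766 was again the lowest of the 6 mice, and MT-ATP8 had 0.907, 0.859 and 0.769 counts per 100 MT-ATP6 counts in the tazemetostat mice, against 0.65, 1.04 and 0.981 in the vehicle mice.

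The more abundant tRNA genes showed small differences. MT-TN had 96.0, 84.5 and 94.3 CPM in the tazemetostat mice, against 118, 84.1 and 89.8 CPM in the vehicle mice (log2 fold change -0.09, SE 0.127). MT-TC had 71.8 ± 5.89 CPM in the tazemetostat mice and 73.3 ± 8.82 CPM in the vehicle mice, while MT-TP had 43.2 ± 1.29 CPM in the tazemetostat mice and 46.4 ± 3.99 CPM in the vehicle mice. All 3 overlapped between the groups. The 5 minus-strand genes with the most counts were MT-TN, MT-TC, MT-TP, MT-TY and MT-ND6. They had log2 fold changes of -0.09, -0.03, -0.10, 0.11 and -0.25. The scarcer minus-strand genes MT-TS1, MT-TE and MT-TQ had -0.10, -0.19 and -0.65. All were measured in the same mice, and differences between these genes were not tested.

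The other tRNA genes lay under 10 CPM. MT-TW, for tryptophan, and MT-TQ had the lowest log2 fold changes, -0.63 (SE 0.42) and -0.65 (SE 0.539), and MT-TS2, for serine, the highest at 0.21 (SE 0.31). MT-TG, for glycine, and MT-TD, for aspartate, had -0.35 (SE 0.225) and -0.41 (SE 0.285). MT-TH, for histidine, MT-TR, for arginine, and MT-TK, for lysine, had log2 fold changes of -0.25 (SE 0.212), -0.22 (SE 0.222) and -0.30 (SE 0.37). None of the 21 tested tRNA genes had groups without overlap.

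Libraries of the same mouse were not all alike, and this touched the mitochondrial genes. By Spearman correlation across the tested genes, 15 of the 18 libraries were closest on average to their own mouse. M_768_A and M_768_B correlated most with each other (0.9882), but their mean with their own mouse, which includes M_768_C, was below that with M_767. M_768_C was closest to the vehicle mouse M_766 (0.9767 on average, against 0.9746 with its own mouse). M_768_C and the 3 libraries of M_766 lay outside the range of the other 14 libraries, on the same side, in MT-ND4L, MT-ND5, MT-ATP8, MT-CO2, MT-RNR1 and MT-RNR2. In log2 CPM relative to the median of all 18 libraries, MT-ND4L was at -1.30 in M_768_C and -1.16 to -0.86 in M_766, against -0.07 to 0.27 in the others. MT-ND5 was at -0.69 in M_768_C and -0.48 to -0.33 in M_766, against -0.11 to 0.43 in the others.

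MT-CO2 went the other way, at 0.43 in M_768_C and 0.25 to 0.37 in M_766, against -0.25 to 0.11 in the others. MT-RNR1 was at 0.22 in M_768_C and 0.36 to 0.44 in M_766, against -0.43 to 0.17 in the others. MT-ND3 was at 0.75 in M_768_C, but in M_766, at 0.13 to 0.24, it reached down to the others at -0.21 to 0.13. The same 4 libraries had shorter nuclear genes relatively higher. The median deviation of genes up to 2316 bases minus that of genes above 5305 bases was 0.226 in M_768_C and 0.135 to 0.187 in M_766, against -0.0817 to 0.0085 in the others. The part of this in the mitochondrial values was not tested.

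**Figure D5:**
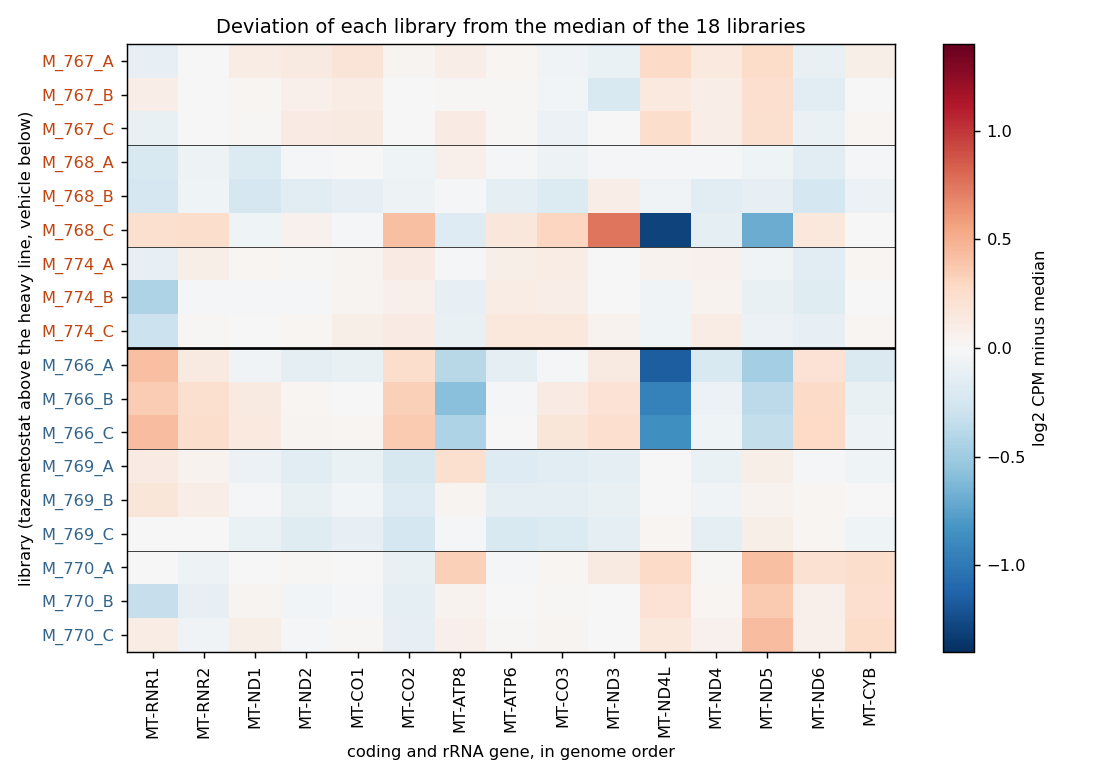
Deviation of each library from the median of the 18 libraries in log2 CPM, for the coding and rRNA genes in genome order, with tazemetostat libraries above the heavy line and vehicle libraries below. M_768_C and the 3 libraries of M_766 share low MT-ND4L, MT-ND5 and MT-ATP8 and high MT-CO2, MT-RNR1 and MT-RNR2.

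MT-ND6 kept its direction without these libraries, but its groups did not overlap, so leaving out a mouse could hardly reverse it. M_768_C was the highest tazemetostat library in MT-ND6, so its removal lowered that group. The log2 fold change of MT-ND6 was -0.28 without M_768_C (edgeR adjusted p = 0.463), -0.18 without mouse M_766 (edgeR adjusted p = 0.662) and -0.21 without both (edgeR adjusted p = 0.417). MT-RNR1 had -0.32 without M_768_C, -0.14 without mouse M_766 and -0.18 without both, so M_766 moved it by more than M_768_C did. Leaving out both was chosen after the data were seen.

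Nuclear copies of mitochondrial genes carry nearly the same sequence. Of 407 such pseudogenes 126 had any count, and 3 on chromosome 1 held 99.0% of their 282812 counts. MTND2P28 (chr1:629640-630683, plus strand, GRCh38) is 98.4% identical to MT-ND2, with an identical run of up to 266 bases. It had 19.5 to 22 counts per 100 counts of MT-ND2 over the 6 mice. MTATP6P1 (chr1:633696-634376, plus strand) is 98.5% identical to MT-ATP6 and had 7.98 to 9.7 counts per 100 counts of MT-ATP6.

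MTCO1P12 (chr1:631074-632616, plus strand), a 98.7% identical copy of MT-CO1, had 0.294 to 0.367 counts per 100 counts of MT-CO1. The 3 copies had log2 fold changes of 0.11, 0.14 and 0.03, beside 0.09, 0.12 and 0.09 of their originals. How reads with several matches were counted is not given in the sources used here, so counts of these copies and of MT-ND2, MT-ATP6 and MT-CO1 are uncertain. Copies with fewer counts were not named.

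The nuclear genes that act on the mitochondrial genome were given for comparison. In these lists 0 genes passed the edgeR test, which 0.0345% of all tested genes passed. Of 10 tested genes of mitochondrial transcription 6 were positive, with a median log2 fold change of 0.06. POLRMT, the mitochondrial RNA polymerase, had 177, 187 and 175 CPM in the tazemetostat mice, against 196, 190 and 210 CPM in the vehicle mice. Its groups did not overlap (log2 fold change -0.15, SE 0.0858, edgeR adjusted p = 0.835). TFAM, which packages mitochondrial DNA and starts transcription, had 115 ± 1.76 CPM in the tazemetostat mice and 107 ± 10.3 CPM in the vehicle mice. MTERF1, which binds mitochondrial DNA downstream of the rRNA genes, had a log2 fold change of 0.18 (SE 0.103), and its groups did not overlap. Of the 10 tested genes 1 was higher and 1 lower without overlap, against 12.6% of all tested genes in either direction.

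RNA processing genes were mixed, with 15 of 26 positive and a median log2 fold change of 0.02. Of the 26, 3 were higher without overlap, FASTKD5 among them, and 0 were lower, against 12.6% of all tested genes in either direction. FASTKD5, which is needed to process messengers that no tRNA borders, had 23.7 ± 0.273 CPM in the tazemetostat mice and 21.0 ± 1.37 CPM in the vehicle mice, with a log2 fold change of 0.18 (SE 0.0934) and an edgeR adjusted p of 0.816. TRMT10C, a subunit of the enzyme that cuts the 5′ end of tRNAs, had 47.8 ± 2.14 CPM in the tazemetostat mice and 41.8 ± 5.81 CPM in the vehicle mice, and the groups overlapped. The lists of tRNA and rRNA modification (11 of 24 positive), tRNA synthetases (11 of 23) and mitochondrial DNA maintenance (9 of 21) had median log2 fold changes of -0.012, -0.005 and -0.006 in that order. In the last of these TK2, the mitochondrial thymidine kinase, had 4.43 ± 0.338 CPM in the tazemetostat mice and 5.59 ± 0.362 CPM in the vehicle mice, with a log2 fold change of -0.34 (SE 0.143) and an edgeR adjusted p of 0.722. MPV17 of the same list went the other way, with a log2 fold change of 0.20 (SE 0.0906, edgeR adjusted p = 0.762). Without overlap, TK2 was the 1 gene lower and MPV17 the 1 gene higher in this list. By the same count, tRNA and rRNA modification had 4 genes higher and 1 lower, and the tRNA synthetases 1 higher and 1 lower.

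Nuclear subunits of the same complexes had medians near 0 over all mice. The median log2 fold change was -0.05 for 37 complex I genes, of which 10 were positive. That count turned on single mice and 1 library: 30 were positive without M_766 (median 0.061), 27 without M_767 (0.047), 3 without M_768 (-0.124), 4 without M_769 (-0.100) and 2 without M_768_C (-0.109). The median was 0.004 for 9 complex III genes, 0.001 for 11 complex IV genes and 0.003 for 18 ATP synthase genes, and over the alternatives tried it ran from -0.101 to 0.101, from -0.107 to 0.141 and from -0.083 to 0.121 for these 3 lists. Complex II, which has no subunit on the mitochondrial genome, had 4 of 4 genes positive with a median of 0.08. Biogenesis regulators had 8 of 13 genes positive and a median of 0.01.

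Mitochondrial chaperones and proteases had 8 of 18 genes positive and a median of -0.003. HSPE1, the co-chaperonin of the matrix, had 101, 121 and 90.8 CPM in the tazemetostat mice, against 68.5, 76.4 and 91.6 CPM in the vehicle mice. M_774 lay just below M_770, so the groups overlapped (log2 fold change 0.40, SE 0.133, edgeR adjusted p = 0.581). Its partner HSPD1 had a log2 fold change of 0.18 (SE 0.111).

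Markers of T cells, of B cells such as the lymphoma itself, of other cells and of handling were measured beside these values. Of 19 T-cell markers CD3D, CD3G and GZMK were at 0 in every mouse and CD3E had 1 to 9 counts. The total of this list is therefore not given as a level of T cells, and the source of its counts was not tested. The list summed to 358 to 382 CPM in the tazemetostat mice and 364 to 423 CPM in the vehicle mice, mostly from IL7R, TRBC2 and CD247. Within it CD247 was higher without overlap, with 49.2 ± 3.95 CPM in the tazemetostat mice and 36.6 ± 5.82 CPM in the vehicle mice (log2 fold change 0.43, edgeR adjusted p = 0.465), while IL7R and TRBC2 overlapped at log2 fold changes of -0.23 and -0.12. The B-cell markers went both ways: BLK was lower without overlap, with 199.5 ± 13.3 CPM in the tazemetostat mice and 248 ± 13.6 CPM in the vehicle mice (log2 fold change -0.31, edgeR adjusted p = 0.477), and CD22 had 214 ± 38.1 CPM in the tazemetostat mice and 239 ± 20.6 CPM in the vehicle mice. MS4A1 had 382 ± 7.61 CPM in the tazemetostat mice and 315 ± 71 CPM in the vehicle mice, and EBF1 had 114 ± 13.7 CPM in the tazemetostat mice and 100.3 ± 11 CPM in the vehicle mice. Myeloid markers summed to 1.05 to 1.47 CPM in the tazemetostat mice and 1.06 to 1.36 CPM in the vehicle mice, and fibroblast and endothelial markers to 3.7 to 5.48 CPM in the tazemetostat mice and 2.39 to 6.01 CPM in the vehicle mice. Of 23 tested genes that cell dissociation induces, 21 were positive with a median log2 fold change of 0.68, 0 passed the edgeR test and 10 were higher without overlap, against 6.58% of all tested genes. Their summed level overlapped, at 5024 to 6275 CPM in the tazemetostat mice and 3665 to 5146 CPM in the vehicle mice. The mean log2 CPM of the tested genes did not overlap, at 5.66 to 6.10 in the tazemetostat mice and 4.89 to 5.52 in the vehicle mice. The lowest of the 6 was M_766, and the part of this list in the MT-ND6 and MT-RNR1 values was not tested.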

How the data were processed

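The authors deposited raw read counts, whole numbers for 58735 Ensembl gene IDs in 18 libraries. The file headers and the values show no scaling of them. The submitters' processing notes name the build hg38 and DESeq2, without a role. The sources used here name no aligner, counter, annotation, strand setting or treatment of reads with several matches. Symbols and gene lengths are those deposited with the counts. Coordinates of 58724 genes, with all 37 mitochondrial genes among them, were the same in GENCODE 29 (GRCh38), whose transcript sequences were used. Shared bases were located by position in these sequences. Anticodons were located by searching the middle of each printed tRNA for its known anticodon with fixed kinds of bases beside it.

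The libraries of a mouse were summed (n = 3 mice per group). The labels do not say that the letters mark shared batches, and no animal is shared between groups. Nothing says that the mice came from separate experiments, so p-values measure the spread between these mice. The test was run on all genes in R 4.3.3 with edgeR 4.0.16 (quasi-likelihood F test, TMM, filterByExpr at a minimum count of 10), adjusted by Benjamini-Hochberg over 20301 genes with a threshold of 0.05. The filter removed 0.0602% of counts, and the biological coefficient of variation was 0.14. The SE is approximate (log2 fold change over the root of F), as are the 95% intervals built on it. Shares and ratios are descriptions with no test, and Wilson intervals cover counting error only.

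Alternatives were other scaling factors, no low-count filter, DESeq2 1.42.0, limma 3.58.1 voom on single libraries with a random mouse effect, the letter as a block, and leaving out mice or M_768_C. Of these steps only the edgeR fit was tested on simulated counts. All 37 members were named, and of each nuclear list at most 4 genes with the smallest p. The members and lists were chosen with earlier results of these data known. One gene of the B-cell marker list, and the sum of that list, are not reported here.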

Additional observations from a re-analysis of the deposited data

Results flagged for a closer look

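Among 100 groups of 9 libraries, 11 had a highest or lowest library that stood apart from its group by Dixon's criterion, of which chance gives about 1 in 20. Libraries of a mouse are not independent, and 10 of the 11 concern the tazemetostat library M_768_C. In it MT-ND6 made up 1.83% of coding counts (1.51% to 1.61% in the other 8 tazemetostat libraries) and had 854 CPM (652 to 721 CPM in the others). MT-ND4L had 273 CPM (643 to 812 CPM in the others), or 4.95 counts per 100 MT-ND4 counts (9.96 to 12.4 in the others). MT-ND5 had 1110 CPM in M_768_C (1660 to 2150 CPM in the others), and complex I genes took 27.2% of coding counts (30.0% to 31.9% in the others). On the high side, M_768_C had 6450 CPM of MT-RNR2 (5200 to 5780 CPM in the others), 6440 CPM of MT-CO2 (4560 to 5180 CPM), 1230 CPM of MT-ND3 (632 to 779 CPM) and 57.3% of coding counts on complex IV genes (53.3% to 54.6%). The vehicle library M_770_C had 1.2 CPM of the scarce tRNA gene MT-TF (0.268 to 0.679 CPM in the other 8 vehicle libraries).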

How the results depend on the processing

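No mitochondrial gene was called under any of the 16 other settings, where the smallest adjusted p lay between 0.182 (MT-ND6, limma-voom) and 0.999. MT-ND6 and MT-RNR1 stayed negative in all of them, at -0.30 to -0.18 and -0.38 to -0.14 on the log2 scale. For MT-ND6, whose groups did not overlap, leaving out a mouse could hardly give another sign. Of 566 recomputed log2 fold changes of single genes 521 kept their direction and 45, of 21 genes, changed it; none of these genes was called, and the cause was not tested. With each mouse left out in turn, these 21 ran from -0.45 to 0.27 (MT-TF), -0.47 to 0.29 (MT-TV), -0.10 to 0.042 (MT-RNR2), -0.15 to 0.15 (MT-TL1), -0.10 to 0.014 (MT-ND1), -0.39 to 0.0087 (MT-TI) and -0.45 to 0.16 (MT-TM). They ran further from -0.18 to 0.085 (MT-TN), -0.095 to 0.085 (MT-TC), -0.087 to 0.24 (MT-TY), -0.36 to 0.068 (MT-TS1), -0.046 to 0.24 (MT-CO2), -0.12 to 0.17 (MT-ATP8) and -0.037 to 0.094 (MT-CO3), and from -0.076 to 0.11 (MT-ND3), -0.11 to 0.40 (MT-ND4L), -0.46 to 0.075 (MT-TL2), -0.24 to 0.15 (MT-ND5), -0.40 to 0.16 (MT-TE), -0.092 to 0.10 (MT-CYB) and -0.35 to 0.20 (MT-TT).

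Without mouse M_766 and library M_768_C together, a setting added after the data were seen, the log2 fold change was 0.0114 for MT-RNR2, 0.0409 for MT-TN, 0.0552 for MT-TC, 0.11 for MT-TS1, 0.24 for MT-TT, -0.10 for MT-ATP8 and -0.0388 for MT-ND4L. Without M_768_C alone it was 0.0375 for MT-TL1, -0.0063 for MT-CO3 and -0.0563 for MT-ND3. Upper-quartile factors gave -0.0034 for MT-CO3 and -0.0115 for MT-ND3, and no low-count filter gave 0.001 for MT-TL1. Without the low-count filter 1 of 18 chaperone and protease genes was called, against 0 with it, and over all genes 252 were called against 7.

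The counts over all genes called also changed with the tool (124 by DESeq2, 225 by limma-voom) and with the mice (26 without M_766, 59 without M_770, 1 without M_767, and 0 without M_768, M_769 or M_774). With the library letter as a replicate block 190 genes were called, against 225 without it, MT-ND6 was at -0.24 (limma adjusted p = 0.195) and the block changed no call of a mitochondrial gene. Every share and ratio stayed within 1 SD between mice of its value under each setting. With so few mice per group, leaving out a mouse cannot move a difference by more than that SD. Those settings therefore could not show whether a share or ratio was stable. The rRNA share difference went from -0.0381 to -0.0101 percentage points without M_766 and M_768_C together, which still lay within that SD. The MT-ND4L ratio changed sign among the mice left out (-1.51 to 1.73 counts per 100 MT-ND4 counts), as did the MT-ATP8 ratio (-0.167 to 0.0293 per 100 MT-ATP6 counts). MT-TA, with 2 to 10 counts a mouse, could not be tested with the filter at this depth.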
